A study of Mus musculus with 4 samples.

Results

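The mTOR complex and TSC genes are 10 genes that encode the kinase mTOR, its partner proteins, the TSC complex that restrains it, the GTPase Rheb and the S6 kinase. They were taken as the probes whose gene symbol is one of Mtor, Rptor, Rictor, Mlst8, Akt1s1, Deptor, Tsc1, Tsc2, Rheb or Rps6kb1. All 10 genes were on the array, with 11 probes among 26423 in the table. Rps6kb1 had 2 probes and each of the others had 1. All samples came from 3T3-L1, a line of mouse preadipocytes that can be induced to form adipocytes filled with lipid. In 2 samples the cells are labelled as given 13.47 µM berberine, a plant alkaloid, together with the induction mixture for 48 hours. The 2 control samples are labelled as given the mixture for 48 hours. This grouping rests on titles and source names, since 1 treatment note shared by all 4 samples names berberine in controls as well. The mixture, shared by both groups, combined insulin at 1 µg/ml with 1 µM dexamethasone and 0.5 mM isobutylmethylxanthine, an inhibitor of phosphodiesterases. The labels do not say whether the samples were separate cultures, so p-values reflect array-to-array spread that may be technical in origin.

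mTOR is a protein kinase that couples growth factor, amino acid and energy supply to protein and lipid synthesis. It works in a pair of complexes: mTORC1, built with Raptor (Rptor), and mTORC2, built with Rictor. The subunit mLST8 (Mlst8) sits in both, PRAS40 (Akt1s1) and DEPTOR (Deptor) are inhibitory partners, and the TSC1 and TSC2 proteins switch off Rheb, the GTPase that activates mTORC1. S6 kinase (Rps6kb1) is a substrate of mTORC1 that phosphorylates ribosomal and translation proteins. In 3T3-L1 cells, mTORC1 activity is known to be needed for adipogenesis, and the insulin of the induction mixture is one of its activators. The arrays measured transcripts and carry no reading of kinase activity.

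In limma's test (threshold 0.05 on the adjusted p), the 4 members called with a change of 2-fold or more are Mtor and Akt1s1, which fell, and Rptor and Tsc1, which rose. Of all genes, 24.3% passed with such a change, 12.9% rising and 11.5% falling. The 250 bases before their annotated starts are shown because these genes code for partners of 1 complex or its restraint and moved in opposite directions. Sequences are from RefSeq, build GRCm38.p6, read 5′ to 3′ in the direction of transcription. Capitals mark matches, on either strand, to CACGTG (the E-box), TGATGNAA (an ATF4 element), GGGCGG (the GC box), CCAAT (the CCAAT box) and CCGGAAG (an ETS core).
Mtor (chr4:148448332-148448581, + strand): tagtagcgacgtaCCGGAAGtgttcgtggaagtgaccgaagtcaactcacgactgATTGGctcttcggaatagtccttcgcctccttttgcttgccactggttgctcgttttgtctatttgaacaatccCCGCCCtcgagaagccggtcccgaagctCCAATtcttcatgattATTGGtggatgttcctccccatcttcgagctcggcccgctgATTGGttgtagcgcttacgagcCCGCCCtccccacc
Akt1s1 (chr7:44850122-44850371, + strand): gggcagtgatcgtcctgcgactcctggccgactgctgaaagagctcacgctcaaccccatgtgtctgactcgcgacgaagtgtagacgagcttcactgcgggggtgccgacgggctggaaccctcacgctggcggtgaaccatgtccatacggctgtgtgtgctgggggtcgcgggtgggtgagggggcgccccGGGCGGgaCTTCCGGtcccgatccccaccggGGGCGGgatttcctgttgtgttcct
Rptor (chr11:119602655-119602904, + strand): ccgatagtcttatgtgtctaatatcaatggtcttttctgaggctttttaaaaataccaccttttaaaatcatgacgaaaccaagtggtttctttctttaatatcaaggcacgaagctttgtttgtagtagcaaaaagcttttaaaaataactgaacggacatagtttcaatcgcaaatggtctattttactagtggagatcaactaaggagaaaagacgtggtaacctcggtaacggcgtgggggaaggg
Tsc1 (chr2:28640983-28641232, + strand): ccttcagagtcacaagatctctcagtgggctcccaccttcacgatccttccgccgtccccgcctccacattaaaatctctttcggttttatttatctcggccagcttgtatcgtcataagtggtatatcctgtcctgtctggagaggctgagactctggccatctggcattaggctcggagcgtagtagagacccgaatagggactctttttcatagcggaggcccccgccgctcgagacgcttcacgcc
The Mtor promoter window held 4 CCAAT boxes, 2 GC boxes and 1 ETS core, and the Akt1s1 window held 2 GC boxes and 1 ETS core. The windows of Rptor and Tsc1 held 0 matches to any of these motifs. Of the other members with an entry, Mlst8 and Rps6kb1 had 0 matches, Tsc2 had 1 ETS core, Rheb had 1 E-box and 1 GC box, and Rictor had 4 GC boxes and 1 CCAAT box, of which a pair overlapped. No such overlap occurred in the sequences printed. The table of promoters matched 9 of the 10 members, and Deptor was not matched. Among all 32851 windows of the same length, 33.8% held a CCAAT box, 32.7% a GC box, 6.91% an ETS core, 6.02% an E-box and 3.45% an ATF4 element. Over all genes of the fit with an entry, a GC box was present in 52.3% of 4219 genes that rose and 57.6% of 2569 that fell. For the CCAAT box the shares were 34.6% of those that rose and 37.1% of those that fell. For the ETS core they were 12.16% and 11.99%. Among the 7185 genes that did not pass, 43.2% held a GC box, 35.5% a CCAAT box and 8.14% an ETS core. A match is a description of letters and not a measured binding site.

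Values below are quantile-normalized log2 intensities unless the deposited intensity is named. Changes are berberine minus control from a limma fit over 26408 probes, with Benjamini-Hochberg adjusted p-values and a threshold of 0.05. A level can be compared for 1 probe across arrays, not between probes. Of the 10 members, 5 rose, 2 fell and 3 did not pass. Over all 17734 genes, 48.2% passed in this comparison, 30.0% rising and 18.2% falling (44.8% of probes passed). Among the 6818 genes at or above the level of the dimmest member, 59.4% passed, 36.9% rising and 22.4% falling, so 70% of members is not far above the background of such genes. The median change of the members was 0.50, against 0.20 for all genes. The normalized groups did not overlap in 9 of the 10 members and in 77.5% of all genes, so groups that lie apart are common here.

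The whole series differed widely between groups. Normalized values correlated at r = 0.994 between berberine arrays, 0.991 between control arrays and 0.912 to 0.918 across groups. Among probes with a mean above log2 10, the median absolute difference between arrays of a group was 0.087 for berberine and 0.26 for control. Adipocyte markers were lower with berberine, with 6 of 9 falling, 1 rising and 2 not passing, and a summed level of 14.94 and 15.03 in berberine samples against 19.20 and 19.14 in control samples. Of 8 preadipocyte and fibroblast markers 3 rose and 3 fell, with summed levels of 18.78 and 18.85 in berberine samples and 18.93 and 18.85 in control samples. Markers of other cell types were dim. Of the macrophage markers 1 of 5 rose and 1 fell, and of the endothelial markers 3 of 5 rose. Of the epithelial markers 1 of 4 fell. Krt8, a further epithelial marker on the array, was left out of the fit, as it read 0 or below on at least 1 array. Summed levels of macrophage, endothelial and epithelial markers lay between 9.92 and 10.58 on every array. Adgre1, the defining macrophage marker F4/80, lay below the array floor in both groups. The part of the lower adipocyte markers in the changes of the mTOR genes was not tested, and in such bulk samples fewer cells of a type and less RNA per cell cannot be told apart.

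**Figure D1:**
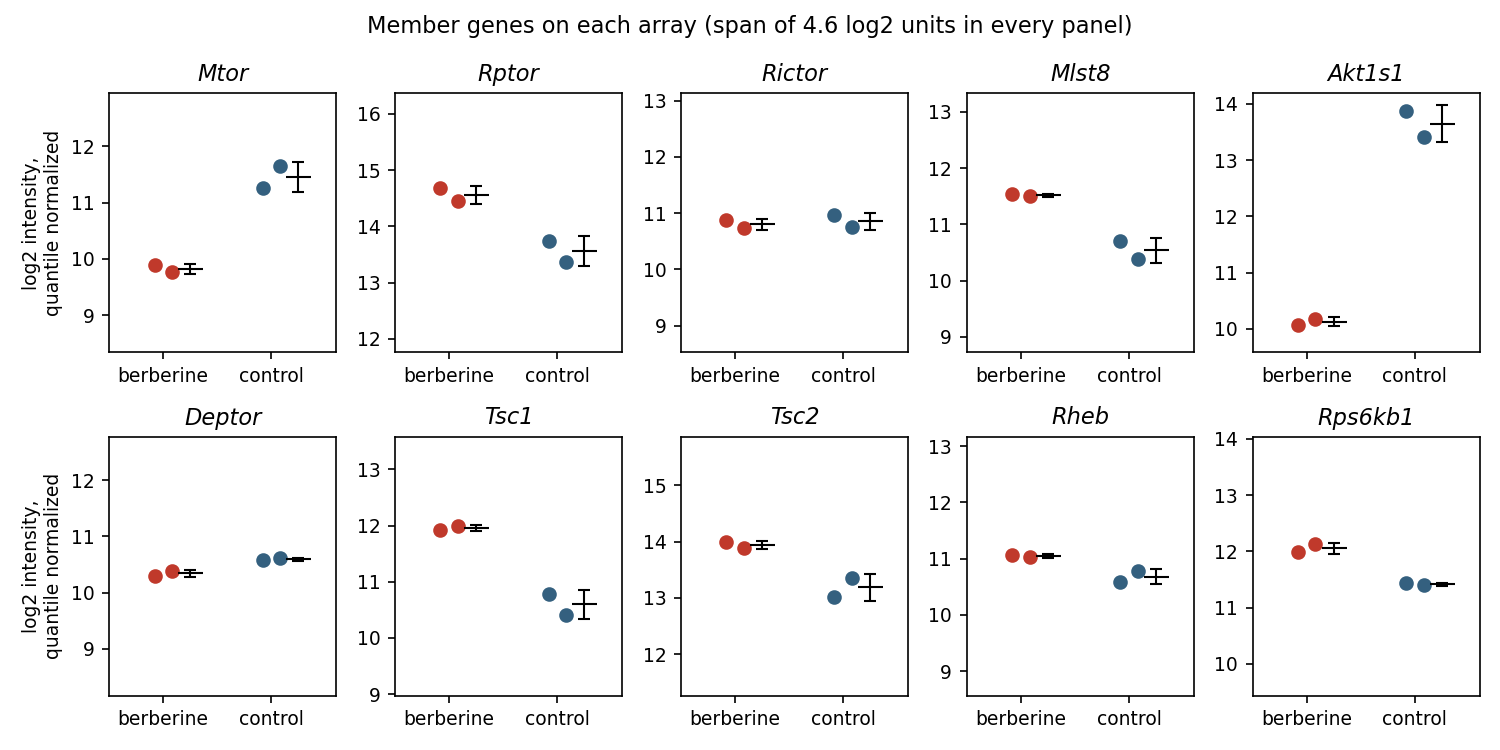
Quantile-normalized log2 intensity of each member gene on each array, with berberine samples on the left and control samples on the right of each panel. Coloured points are single arrays and the black dash with its bar is the mean and SD of 2 arrays. Akt1s1 and Mtor are lower in both berberine samples, Rptor, Mlst8, Tsc1, Tsc2 and Rps6kb1 are higher, and the 2 groups of Rictor overlap.

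The transcript of the kinase itself was lower with berberine. Mtor, which encodes the catalytic subunit of both complexes, had deposited intensities of 737 and 753 in berberine samples, against 3143 and 2939 in control samples. After normalization its levels were 9.89 and 9.77 in berberine samples and 11.26 and 11.64 in control samples. Both berberine arrays lay below both controls, by more than the distance between arrays of a group. The fall was 3.08-fold (log2 change -1.62, SE 0.17, 95% interval -2.07 to -1.18, adjusted p = 0.00213, limma). It stood at the 7.22 percentile of the changes of all genes. No other probe of Mtor was on the array to set beside this fall. The call was lost without berberine replicate 2 (adjusted p = 0.0599).

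The transcript for the subunit that defines mTORC1 rose, while that for the subunit of mTORC2 did not pass. Rptor, the scaffold that recruits mTORC1 substrates, was at 14.68 and 14.45 in berberine samples and 13.75 and 13.37 in control samples. It rose 2.01-fold (log2 change 1.00, SE 0.18, adjusted p = 0.0107, limma), with both berberine arrays above both controls. Rictor, the scaffold of mTORC2, was at 10.88 and 10.73 in berberine samples and 10.96 and 10.75 in control samples. Its groups overlapped, and the log2 change was -0.05 with a 95% interval of -0.43 to 0.32 (adjusted p = 0.788, limma). In the deposited intensities its groups were apart, with 1545 and 1549 in berberine samples against 2614 and 1730 in control samples, and the change of -0.46 did not pass there either (adjusted p = 0.281, limma).

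The transcript of the shared subunit moved with Rptor, opposite to Mtor. Mlst8, which binds the kinase domain in both complexes, was at 11.53 and 11.50 in berberine samples and 10.70 and 10.38 in control samples. It rose 1.97-fold (log2 change 0.98, SE 0.16, adjusted p = 0.00718, limma). The groups were apart, and the berberine arrays differed by 0.034, against 0.32 for the control arrays. In the deposited values the change was 0.63 and did not pass (adjusted p = 0.166, limma).

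Of the inhibitory partners, Akt1s1 fell and Deptor did not pass. Akt1s1 encodes PRAS40, an AKT substrate that binds Raptor. Its deposited intensities were 837 and 1028 in berberine samples, against 16123 and 9201 in control samples. Normalized levels were 10.07 and 10.18 in berberine samples and 13.88 and 13.41 in control samples, an 11.5-fold fall (log2 change -3.52, SE 0.19, 95% interval -4.02 to -3.02, adjusted p = 0.00033, limma). Both berberine arrays were far below both controls, and 2.02% of all genes had a change as low or lower. The call was kept under every alternative run, including each array left out. It rests on 1 probe, and large falls on these arrays often did not extend to a second probe. Of 494 genes with 2 probes above log2 10 in control, 98 had a probe at least 8-fold lower, and in 29 of these the other probe was at least 2-fold lower.

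Deptor, which binds mTOR in both complexes, was at 10.30 and 10.39 in berberine samples and 10.57 and 10.61 in control samples. The groups did not overlap, which was true of 77.5% of all genes, and the change of -0.25 (95% interval -0.56 to 0.06) did not pass (adjusted p = 0.157, limma). In the deposited intensities it had 990 and 1189 in berberine samples, against 2049 and 1597 in control samples, a change of -0.74 that did not pass either (adjusted p = 0.0777, limma).

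**Figure D2:**
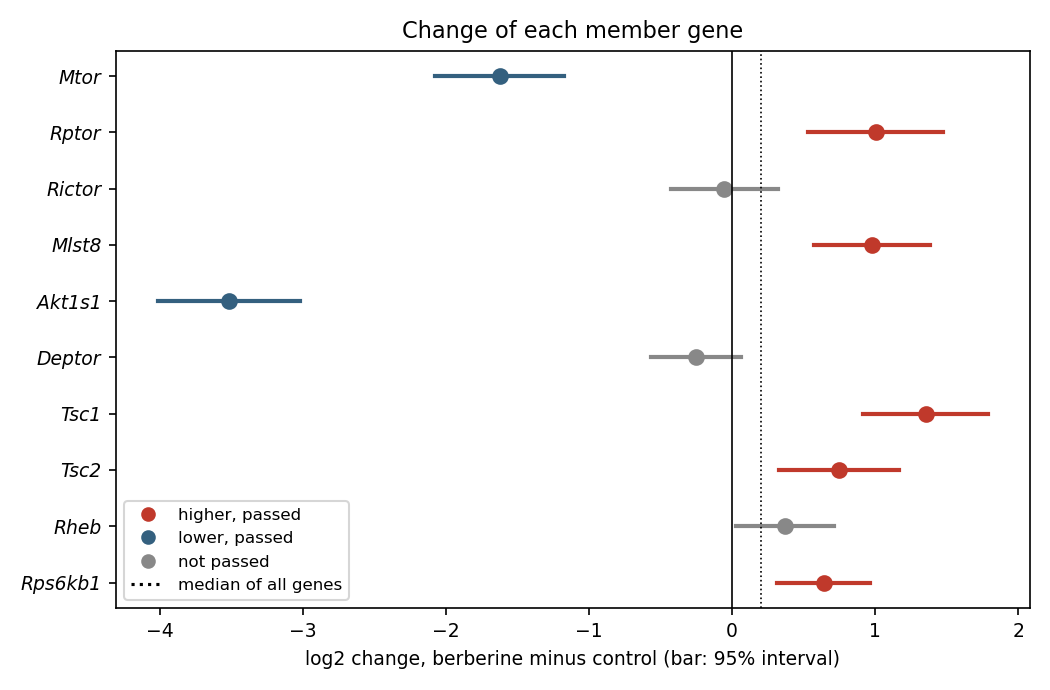
Log2 change of each member gene, berberine minus control, with its 95% interval from limma as a bar. The dotted line is the median change of all genes at 0.20. Akt1s1 at -3.52 and Mtor at -1.62 lie left of it. The 5 rising genes that passed lie right of it with intervals that exclude 0. Rheb does too, at 0.37 (interval 0.03 to 0.71), but did not pass after adjustment.

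Both TSC genes rose. TSC1 stabilises TSC2, and TSC2 is the GTPase-activating subunit that turns Rheb off. Tsc1 was at 11.91 and 11.99 in berberine samples and 10.78 and 10.41 in control samples, a 2.56-fold rise (log2 change 1.35, SE 0.17, adjusted p = 0.00335, limma). Tsc2 was at 13.99 and 13.88 in berberine samples and 13.02 and 13.36 in control samples, a 1.68-fold rise (log2 change 0.75, SE 0.16, adjusted p = 0.0187, limma). For both genes the berberine arrays lay above the controls, and the deposited values gave the same calls, with changes of 1.08 and 0.89. Tbc1d7, the remaining subunit of the TSC complex and not a member of the set, rose 2.58-fold (adjusted p = 0.00182, limma).

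Rheb, the target of the TSC complex, was at 11.07 and 11.03 in berberine samples and 10.59 and 10.77 in control samples. The change of 0.37 (95% interval 0.03 to 0.71) did not pass (adjusted p = 0.0777, limma). Its direction depended on scaling: in the deposited intensities its groups overlapped, with 1791 and 1963 in berberine samples against 2067 and 1758 in control samples, and the change was -0.02. After centring on the array median it was 0.54 and passed (adjusted p = 0.0294, limma).

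The S6 kinase gene rose modestly. Rps6kb1 was at 11.98 and 12.12 in berberine samples and 11.43 and 11.39 in control samples at its brighter probe. The rise was 1.56-fold (log2 change 0.64, SE 0.13, adjusted p = 0.0141, limma), and the groups were apart. The call was lost in the deposited values, where the change was 0.49 (adjusted p = 0.242, limma). The other probe lay below the floor, the 25th percentile of normalized values at 6.57, on every array. It read 5.69 and 5.87 in berberine samples and 5.12 and 5.43 in control samples, and no fold is given for it.

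The 5 rises share a limit that the fall of Akt1s1 does not. Without berberine replicate 1, or without berberine replicate 2, none of Rptor, Mlst8, Tsc1, Tsc2 and Rps6kb1 passed, with adjusted p-values of 0.0610 to 0.150 in limma, and Rptor also missed without control replicate 2 (0.0521). Members past the threshold then numbered 2 and 1, when 15.1% and 13.6% of all genes passed. The direction of each rise and of both falls was the same in all 12 alternatives run on single genes. Of these, a trended prior, a replicate block and leaving out dim probes cannot change a direction. Nor can averaging probes for a gene with 1 probe.

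The calls of members were 5 higher and 2 lower after quantile normalization and after scaling on the 75th percentile, where 25.1% of all genes rose and 14.4% fell. They were 3 higher and 2 lower in the deposited values, where 11.2% of all genes rose and 16.7% fell. After centring they were 6 higher and 2 lower, and 44.3% of all genes rose and 12.8% fell. The median change of all genes moved with the scaling, at 0.20 after quantile normalization, -0.02 with no scaling, 0.55 with arrays centred and 0.29 on the 75th percentile. Relative to that median, Rptor, Mlst8, Tsc1, Tsc2 and Rps6kb1 were above it under all 4 scalings and Mtor, Rictor, Akt1s1 and Deptor below it. Rheb was at 0.16 after quantile normalization and -0.0063 under the others. Scalings that shift a whole array give 1 and the same relative value, so these are 2 distinct checks. Relative to the median, Tsc1 lay 1.10 to 1.15 above and Akt1s1 lay at -3.72 to -3.70.

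**Figure D3:**
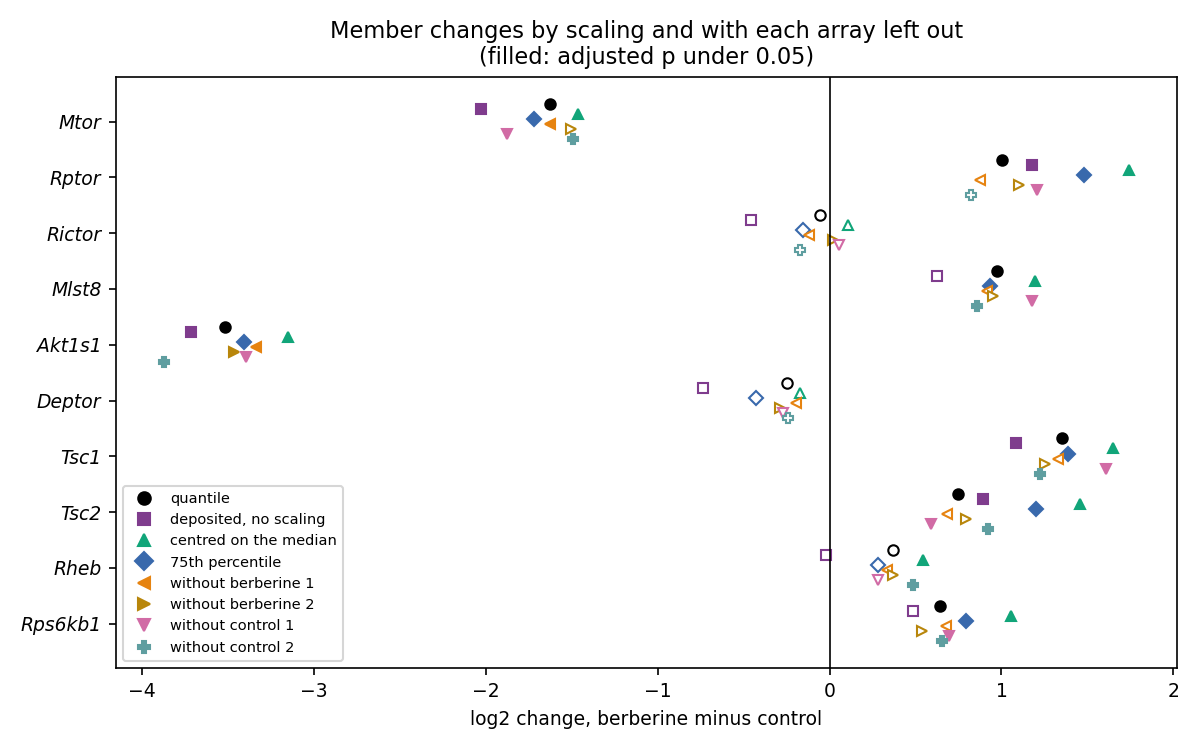
Log2 change of each member, berberine minus control, under 4 scalings and with each array left out. Filled symbols have an adjusted p under 0.05. Akt1s1 is filled throughout, the 5 rising genes turn open without either berberine array, and Rheb and Rictor cross 0.

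The difference between 2 probes on the same array is untouched by any factor that scales that array. Its size has no meaning across probes, but a shift between groups shows unequal change. For Rptor minus Rictor it was 4.12 and 4.03 in berberine samples and 2.51 and 2.37 in control samples, a shift of 1.63, or 3.10-fold. Quantile normalization gave 1.06 for the same pair. For Mtor minus Mlst8 it was -1.82 and -1.91 in berberine samples and 0.50 and 1.08 in control samples, a shift of -2.66. In the deposited values the changes of the Mtor and Mlst8 transcripts, read at 1 probe each, differed by 6.30-fold. For Akt1s1 minus Deptor it was -0.24 and -0.21 in berberine samples and 2.98 and 2.53 in control samples, a shift of -2.98. The groups of these 3 pairs did not overlap, and the exact two-sided permutation p was 0.333, the smallest that 2 against 2 arrays allow. Groups also did not overlap for 77.5% of single genes, and the share among other pairs was not worked out. For Tsc2 minus Tsc1 the values overlapped, at 2.22 and 2.004 in berberine samples and 1.96 and 2.64 in control samples (shift -0.19, exact permutation p = 1). These 4 pairs were taken by role after the member values were seen, and with p at its floor no adjustment over them is informative.

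The other genes of the pathway, from 8 lists, numbered 71 measured of 78, of which 25 rose, 23 fell and 23 did not pass. Of all genes, 30.0% rose and 18.2% fell, and the counts of each list below are to be read beside these shares. In the deposited values 12 pathway genes rose and 19 fell, when 11.2% and 16.7% of all genes did. After centring 30 rose and 16 fell, when 44.3% and 12.8% of all genes did. The median change of the pathway genes was 0.05, below the 0.20 of all genes. Of the 48 called genes, 8 had another probe above the floor. In 5 of them such a probe was called the same way and in 2, Eif4b and Depdc5, the opposite way, Depdc5 being named for that after its values were seen. Of the 23 genes that did not pass, 3 had another probe above the floor, and in 2, Pdcd4 and Pdpk1, such a probe was called lower, both being named for that after their values were seen. Of the 38 pathway genes named by rule below, 11 lost their call in the deposited values, 5 after centring and 7 on the 75th percentile. The 5 that lost it under all 3 of these scalings are Fkbp1a, Rraga, Lamtor4, Sesn1 and Eif4ebp2.

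Around mTORC2 and complex assembly, 3 of 5 measured genes rose and 1 fell. Mapkap1, which encodes the mTORC2 subunit SIN1, rose 1.40-fold, Prr5l, an mTORC2 partner, 2.29-fold, and Tti1, of the complex that helps mTOR fold, 1.87-fold. The rises of Mapkap1 and Prr5l, both 0.65 in the deposited values, did not pass there. Telo2, the partner of Tti1 in that complex, fell 3.58-fold (adjusted p = 0.00321, limma). Among the 8 TSC and Rheb partners 2 rose and 4 fell. Ddit4, a stress-induced inhibitor of mTORC1 that acts through TSC, was at 11.54 and 11.25 in berberine samples and 13.04 and 12.76 in control samples, a 2.85-fold fall (adjusted p = 0.00267, limma). Dapk1, a kinase that phosphorylates TSC2, fell 4.83-fold, and 2 other probes of it were also called lower. Fkbp8 rose 2.10-fold. Fkbp1a, the rapamycin-binding protein FKBP12, fell 1.64-fold, but its changes of -0.59 in the deposited values and -0.03 after centring did not pass.

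The amino acid arm was mixed. Of 12 Rag and Ragulator genes, which hold mTORC1 at the lysosome, 4 rose and 3 fell, counting as a rise Rragd, which lay below the floor in both groups. Fnip2, a folliculin partner, rose 2.90-fold, Rragb, a Rag GTPase, 1.68-fold and Fnip1 1.40-fold. The rise of Rragb did not pass in the deposited values (0.15) or on the 75th percentile (0.46), nor that of Fnip1 in the deposited values. Slc38a9, a lysosomal arginine sensor, fell 3.05-fold, though its other 2 probes above the floor did not pass. Rraga, the related Rag GTPase, fell 1.93-fold and Lamtor4, a Ragulator subunit, 1.78-fold. After centring these 2 changes were -0.19 and -0.07, and neither passed under any of the other scalings. Of 16 genes of GATOR, KICSTOR and the amino acid sensors, 9 rose and 3 fell, with a median of 0.63. Itfg2, a KICSTOR subunit, rose 3.11-fold, Lars, the leucyl-tRNA synthetase, 2.37-fold and Seh1l, a GATOR2 subunit, 2.36-fold. Castor2, related to an arginine sensor, fell 4.62-fold, Kptn, a KICSTOR subunit, 3.93-fold and Sesn1, a sestrin, 1.54-fold. The change of Sesn1 was -0.58 in the deposited values and -0.01 after centring, and passed in neither.

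Downstream of mTORC1, the 4E-BP arm held the lowest change among the 71 pathway genes, each taken by its brightest probe. Eif4g1, the scaffold of the cap-binding complex, was at 9.77 and 9.91 in berberine samples and 14.74 and 14.82 in control samples, a 30.6-fold fall (adjusted p = 7.1e-05, limma). Larp1, an RNA-binding repressor of ribosomal protein messages, fell 26.1-fold. Its levels of 7.37 and 6.78 in berberine samples lay close to the floor of 6.57, so the size of this fall is less certain. Neither Eif4g1 nor Larp1 had another probe above the floor. The limit given for the 1 probe of Akt1s1 holds for these 2 falls as well. Of the 48 called pathway genes, 8 had such a probe, so most other falls also rest on 1 probe above the floor. In the rest of this arm, Eif4ebp3 fell 2.91-fold. Eif4ebp1, the translation repressor that mTORC1 phosphorylates, rose 1.41-fold and Eif4ebp2 1.35-fold. Neither rise passed in the deposited values, where Eif4ebp2 had the opposite sign at -0.12. In this 4E-BP arm 2 of 7 genes rose and 4 fell.

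Of 7 measured genes of the S6 kinase arm, 3 rose and 3 fell. Rps6kb2, the paralogue of Rps6kb1, went the opposite way to it and fell 4.44-fold (adjusted p = 0.000489, limma). Cad, the pyrimidine synthesis enzyme that S6 kinase phosphorylates, fell 6.30-fold and Eef2k, the elongation factor 2 kinase, 2.02-fold. Poldip3, an S6 kinase substrate also called SKAR, rose 2.25-fold and Ncbp1, a cap-binding protein, 2.19-fold. Eif4b rose 1.66-fold at its brighter probe, while its other probe was called lower at -3.04, so its direction is unsettled. Pdcd4, a translation inhibitor that S6 kinase marks for degradation, changed by 0.15 at its brighter probe and did not pass, while its other probe was called lower at -1.27.

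Of 10 mTORC1 substrates in autophagy, lipid and growth factor signalling, 1 rose and 4 fell. Lpin1, a phosphatidate phosphatase whose nuclear entry mTORC1 blocks, fell 9.58-fold, Atg13 2.91-fold and Ulk1 2.52-fold. Another probe above the floor was called lower for Lpin1, at -5.92, and for Atg13, at -1.53. Atg13 and Ulk1 act in the complex that starts autophagy, and their partner Rb1cc1, also called FIP200, rose 1.74-fold, a rise that did not pass in the deposited values or on the 75th percentile. Of 6 kinases of the mTORC2 and PDK1 arm, 1 rose and 1 fell. Akt1, the kinase that phosphorylates both TSC2 and PRAS40, was at 12.04 and 12.10 in berberine samples and 14.76 and 14.55 in control samples, a 6.01-fold fall (adjusted p = 0.000306, limma). Prkca, protein kinase C alpha, rose 3.20-fold. Pdpk1, which encodes PDK1, changed by 0.58 at its brightest probe and did not pass (adjusted p = 0.0665, limma), while its other probes were called lower at -1.72 and -2.72. The 38 pathway genes named by rule were the largest called changes of their lists, so calls kept with an array left out were favoured by that choice. Most lost their call without berberine replicate 1, and most did without berberine replicate 2, where fewer of all genes passed as well. Telo2 lost its call in both cases and Ddit4 without berberine replicate 2.

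**Figure D4:**
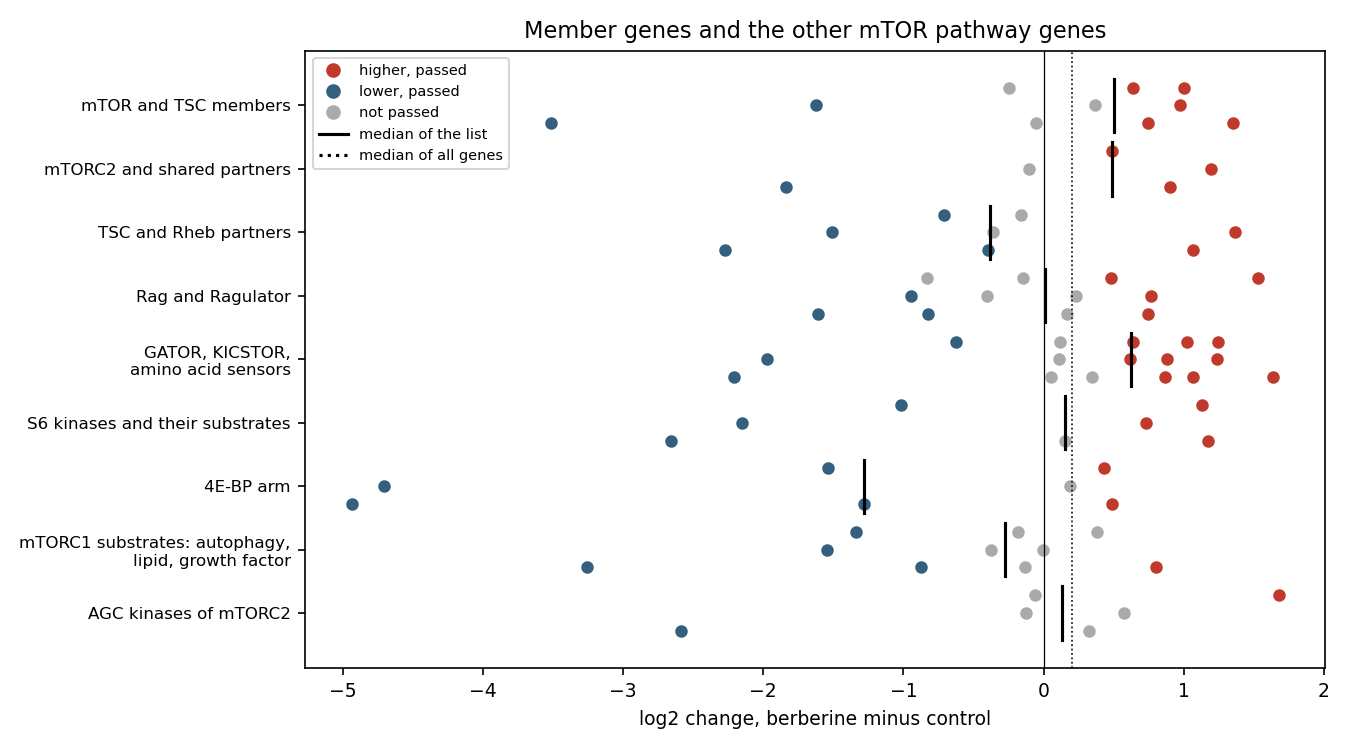
Log2 change, berberine minus control, of each measured gene by list, members on top, by 1 probe a gene. Red and blue points passed the threshold, black dashes are list medians and the dotted line is the median of all genes at 0.20. Each of these lists has at least 1 gene past the threshold in each direction.

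The genes whose pattern over the 4 arrays was most like that of Mtor were Gss (glutathione synthetase), Gm2a (a lysosomal lipid-binding activator) and Pcmtd2, among 13912 genes above the floor in both groups. Their mean-centred values differed from those of Mtor by a root mean square of 0.013, 0.027 and 0.030 on the log2 scale. As 80 genes lay within 0.1, such likeness over 4 arrays is not particular to the genes named.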

How the data were processed

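Total RNA of 4 samples was amplified and Cy5-labelled for 1-colour arrays, per the labels' protocols. The deposited intensity values are whole numbers on a linear scale, and for the authors' scanner, background correction and scaling the entry is: not given in the sources used here. Groups were taken from the sample titles. Median deposited intensity was 237 and 280 on the berberine arrays and 423 and 350 on the control arrays. Because these medians differed by over 0.5 on the log2 scale, arrays were quantile normalized. The 15 probes at or below 0 on any array were left out, and no pseudocount was added. With 4 arrays, their number limits the precision.

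Of 26423 probes, 20377 carried exactly 1 gene symbol and 6046 are unnamed here, with 0 carrying several. Symbols were matched to RefSeq without regard to case (18213 by current symbol, 2126 by an older one, 38 kept as on the platform). A gene was represented by its probe with the highest mean. Berberine was set against control in limma 3.58.1 (R 4.3.3), with 2 residual and 2.89 prior degrees of freedom and Benjamini-Hochberg adjustment over 26408 probes. The fit was tested on simulated data in which a small share of probes changed, evenly up and down. That test cannot speak to changes as widespread as those found here. The floor was the 25th percentile of normalized values, and with both groups below it no fold is given. Members, gene lists and alternatives were chosen with earlier results of these data known. From each pathway list, up to 3 rises and 3 falls above the floor with the largest change were named. No set test was run. Alternatives were other scalings, log2(value + 16), a trended prior, a replicate block, dim probes left out, probes averaged, a 2-fold minimum and each array left out. The 2 replicate numbers are not stated to pair arrays.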

Additional observations from a re-analysis of the deposited data

How the results depend on the processing

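Of 120 combinations of a member gene and an alternative, 100 kept direction and side of the threshold, 14 lost a call, 2 gained one and 4 changed sign, none of these 4 with an adjusted p under 0.05 in limma. Members past the threshold, 7 in all, were 4 with a 2-fold minimum, 6 with Rps6kb1 by its dimmer probe and 1 to 7 with each array left out. Probes past it, 11838 (7164 higher, 4674 lower), were 6687 in the deposited values (2396 higher, 4291 lower), 14005 after centring (10694 higher, 3311 lower), 5806 with a 2-fold minimum and 3346 to 10787 with each array left out. Other pathway genes past it, 48, were 31, 46, 29 and 14 to 43 under the same settings. The members' median change of 0.50 was 0.23 with no scaling, 0.80 with arrays centred, 0.54 on the 75th percentile, 0.47 with probes averaged and 0.44 to 0.57 with each array left out. Rictor changed by 0.11 after centring, Mlst8 by 0.63 in the deposited values (adjusted p = 0.166), Rps6kb1 by 0.49 there (0.242) and Rheb by -0.024 there and 0.54 after centring. With each array left out, changes ran from -1.87 to -1.49 for Mtor, 0.82 to 1.21 for Rptor, -0.17 to 0.055 for Rictor, 0.86 to 1.18 for Mlst8, 1.23 to 1.61 for Tsc1, 0.59 to 0.92 for Tsc2, 0.28 to 0.49 for Rheb and 0.54 to 0.69 for Rps6kb1. Leaving out a berberine array leaves 1 residual degree of freedom, from the control pair, and the lone array is assumed to vary like the controls. The trended prior, the replicate block and leaving out dim probes left each log2 change as it was, so no sign could change under them. Among the pathway genes named, Eif4b was at -1.16 with its probes averaged and Eif4ebp2 at -0.12 in the deposited values, both opposite in sign to the reported rise. The other causes were not tested.

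With the replicate block, 12760 probes, 7 members and 47 other pathway genes passed. Deviations of same-numbered arrays from their group means correlated at 0.0035 over probes, so the numbers give no sign of pairing. The within-array differences and the use of the dimmer Rps6kb1 probe were added after the data were seen. The zero point of the intensities is unknown, so folds of dim probes are less certain than those of bright ones.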
